A study of Mus musculus with 8 samples.

Results

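The 9 genes described here belong to the synaptic vesicle and its fusion machinery, and were followed through a knockdown of the transcription factor Fezf2 in primary motor cortex (M1) of mature mice: Snap25, Stx1a, Vamp2, Syt1, Cplx1, Syp, Sv2a, Syn1 and Syn2. They were chosen by name, and each was represented by its transcript with the lowest Ensembl number, giving 9 of 38031 genes with counts and 9 of the 9959 genes that passed the filter on low counts. Male Swiss Webster mice received a lentivirus in M1 at postnatal day 21 to 25, and the transduced cortex was collected at day 49 to 53 for sequencing of total RNA. The virus carried either an shRNA against Fezf2 or a non-silencing shRNA, with 4 libraries of each, and all 8 libraries came from injected animals of the same age, sex and strain. In both groups a rat Synapsin I promoter drove mCherry and the shRNA, so the hairpin was made in transduced neurons, whereas the RNA came from the dissected tissue with all cortical layers and meninges. In such tissue, fewer cells of a type and less RNA per cell cannot be told apart.

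Neurotransmitter is released when a vesicle fuses with the membrane of the terminal. Fusion is driven by 3 SNARE proteins that zip together, syntaxin-1A (Stx1a) and SNAP-25 (Snap25) on the plasma membrane and VAMP2 (Vamp2) on the vesicle. Synaptotagmin-1 (Syt1) is the calcium sensor that triggers fast fusion, and complexin-1 (Cplx1) binds the assembled SNARE complex. Synaptophysin (Syp) and SV2A (Sv2a) sit in the vesicle membrane, and the synapsins (Syn1, Syn2) coat vesicles and hold them in the reserve cluster. In cortex these genes are transcribed chiefly by neurons, excitatory and inhibitory alike.

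Counts on genes ranged from 54684016 to 58003814 per library. Fezf2 itself had 687.5, 767, 735 and 702 normalized counts in the libraries given non-silencing shRNA and 621, 583, 568 and 592.5 in those given Fezf2 shRNA, where normalized counts are read counts scaled to one common library size. All 4 knockdown values lay below all control values, and the log2 fold change was -0.29 (95% interval -0.46 to -0.12, adjusted p = 0.0824 in edgeR's quasi-likelihood test, exact two-sided permutation p = 0.0286, the smallest that 4 against 4 allows). The change passed the size limit of 0.2 used for calling a gene, but not the limit of 0.05 on the Benjamini-Hochberg adjusted p, which it passed in DESeq2 (adjusted p = 0.0256). Summed neuronal markers overlapped between the groups (181411 to 204258 normalized counts in control, 188915 to 193808 in knockdown libraries). Summed oligodendrocyte markers ran from 63046 to 114298 in control and from 46845 to 76875 in knockdown libraries, and 5 of 7 were lower at an unadjusted p under 0.05, with none called. Summed microglial markers reached 14183 at most in control and 26178 in knockdown libraries, and none of the markers of any type was at 0 in a library. The part of these markers in the values of the 9 genes was not tested.

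None of the 9 genes passed the threshold in edgeR, against 2.09% of all genes tested (208 of 9959, of which 195 rose, 1.96%, and 13 fell, 0.131%). DESeq2 called none of the 9 either, against 7.55% of all genes. Of the 9, 5 had a log2 fold change above 0 and 4 below, where 56.6% of all genes were below, with a median of 0.01 beside -0.03 over all genes tested. The adjusted p ran from 0.207 for Syt1 to 0.921 for Stx1a. Syt1 was the one gene of the 9 with an unadjusted p under 0.05, as 19.6% of all genes tested had, and the one whose groups did not overlap, as in 11.8% of them (7.41% higher and 4.41% lower in knockdown). The 95% intervals of the 9 log2 fold changes reached from -0.31 (Syp) to 0.38 (Syn1), so a change beyond these bounds was outside every interval.

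**Figure D1:**
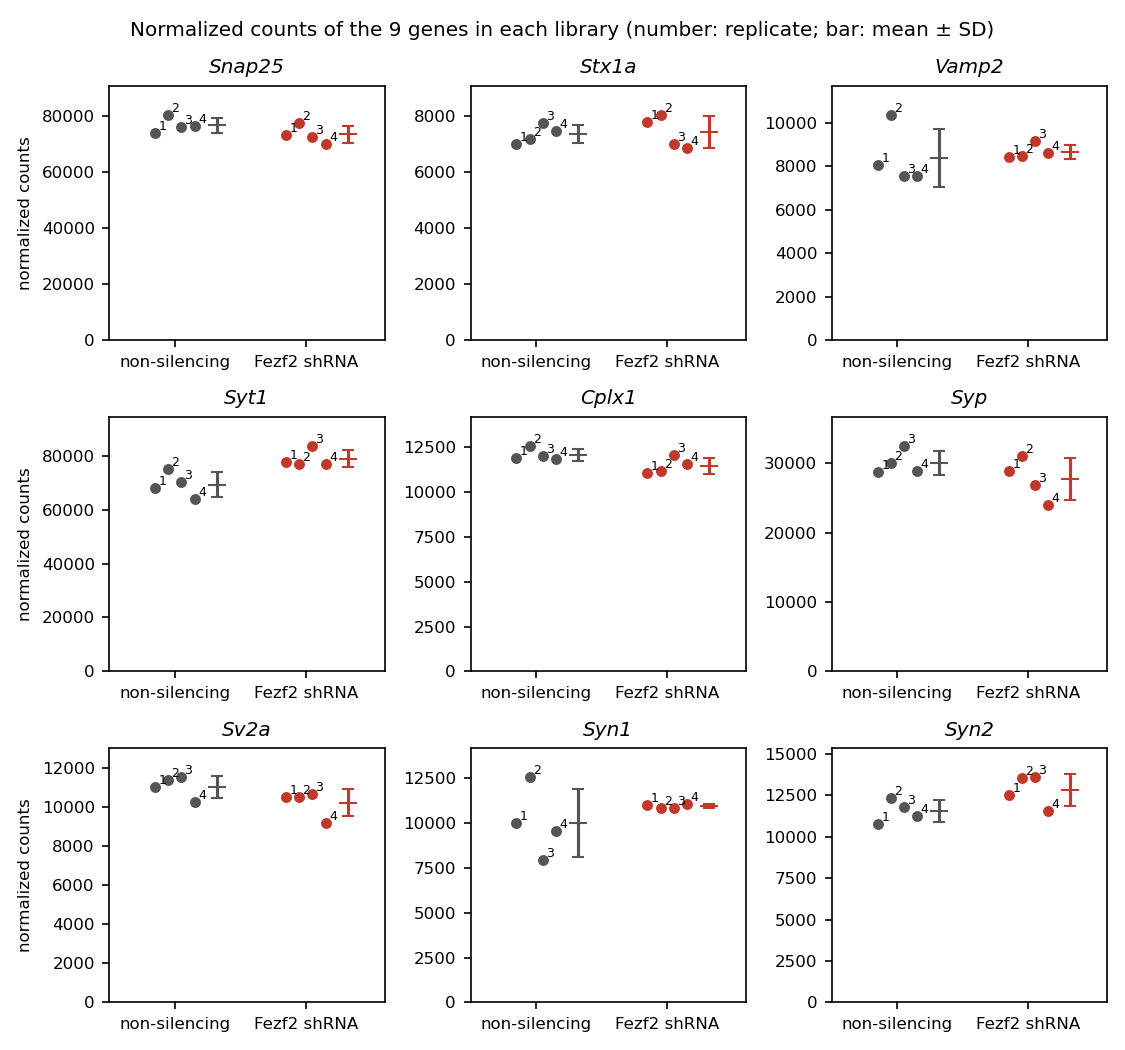
Normalized counts (vertical axis from 0) of the 9 genes in each library given non-silencing shRNA (grey) or Fezf2 shRNA (red); numbers are replicates and the bars show mean ± SD, n = 4. The groups overlap in 8 of the panels, and in the Syt1 panel the 4 knockdown libraries lie above the controls.

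The membrane SNARE Snap25 (ENSMUSG00000027273, GRCm38 chr2:136713453-136782428, plus strand, 8 exons) had 74009, 80292, 76247 and 76400.4 normalized counts in control libraries and 73401, 77705, 72685 and 70137.7 in knockdown libraries. Its groups overlapped, and its libraries were among the most even of the set, with a coefficient of variation of 3.4% in control and 4.28% in knockdown. Between treatments it differed by a log2 fold change of -0.06 (SE 0.0671, 95% interval -0.21 to 0.09, adjusted p = 0.628).

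Its partner Stx1a (ENSMUSG00000007207, chr5:135023482-135051100, plus strand, 10 exons) had 7016, 7186, 7754 and 7482 normalized counts in control libraries and 7814, 8039.9, 7022 and 6865 in knockdown libraries. Knockdown libraries 1 and 2 held the highest values and knockdown library 4 the lowest, with knockdown library 3 among the controls. The log2 fold change was 0.01 (SE 0.0669, 95% interval -0.13 to 0.16, adjusted p = 0.921), the value nearest to 0 among the 9.

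The vesicle SNARE Vamp2 (ENSMUSG00000020894, chr11:69088490-69092384, plus strand, 5 exons) had 8056, 10335, 7548 and 7544 normalized counts in control libraries and 8415, 8487, 9134 and 8623 in knockdown libraries. Control library 2 stood above the other 7 libraries, and the other controls stood below all 4 knockdown libraries. The coefficient of variation was 15.9% in control and 3.75% in knockdown. Its log2 fold change was 0.05 (SE 0.0973, 95% interval -0.16 to 0.26, adjusted p = 0.798), and it was 0.17 without control library 2, 0.013 without control library 3 and 0.0058 without control library 4.

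The calcium sensor Syt1 (ENSMUSG00000035864, chr10:108497652-109010982, minus strand, 11 exons) is the longest of the 9, spanning 513 kb of which 0.924% is exonic. It had 68049.8, 75187, 70168 and 63773 normalized counts in control libraries and 77780.4, 77018, 83506 and 77084 in knockdown libraries. All 4 knockdown libraries were above all 4 controls, a pattern held by 7.41% of all genes tested. The log2 fold change was 0.19 (SE 0.0738, 95% interval 0.02 to 0.35, adjusted p = 0.207, exact permutation p = 0.0286), short of the threshold on both size and adjusted p. With an offset for gene length, which removes in each library the trend of counts along gene span, its log2 fold change was -0.11 (adjusted p = 0.584).

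Cplx1 (ENSMUSG00000033615, chr5:108518554-108550024, minus strand, 4 exons) had 11879.8, 12545, 12013 and 11819 normalized counts in control libraries and 11037, 11189.5, 12039 and 11529.9 in knockdown libraries. Knockdown libraries 1, 2 and 4 were below every control and knockdown library 3 was level with them. The difference was a log2 fold change of -0.08 (SE 0.0575, 95% interval -0.20 to 0.05, adjusted p = 0.478), with the smallest SE of the set.

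The vesicle protein gene Syp (ENSMUSG00000031144, chrX:7638471-7653256, plus strand, 7 exons) had 28719.9, 30026, 32478 and 28976 normalized counts in control libraries and 28905.5, 31054, 26940.1 and 24042 in knockdown libraries. Knockdown libraries 3 and 4 were the lowest of the 8, while knockdown library 2 exceeded 3 of the controls. On the log2 scale Syp differed by -0.12 (SE 0.0872, 95% interval -0.31 to 0.08, adjusted p = 0.473). An antisense gene, Gm14703, overlaps 2151 bases of the 3′ side of Syp, and its whole interval holds counts equal to 65.3% of those of Syp (19892 normalized counts in control and 17815 in knockdown, exact permutation p = 0.257). No strand setting is stated for the counting, so reads of the 2 genes in the shared bases cannot be told apart here.

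Sv2a (ENSMUSG00000038486, chr3:96181151-96195521, plus strand, 13 exons), which encodes the vesicle protein bound by levetiracetam, had 10988, 11359, 11504.5 and 10247 normalized counts in control libraries and 10515.5, 10477, 10629 and 9165 in knockdown libraries. Knockdown library 4 was lowest and control library 4 next, and the other knockdown libraries lay under the other controls. The log2 fold change was -0.11 (SE 0.0686, 95% interval -0.26 to 0.04, adjusted p = 0.372).

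Syn1 (ENSMUSG00000037217, chrX:20860515-20920918, minus strand, 13 exons) had 10001, 12568, 7956 and 9566 normalized counts in control libraries and 11031, 10846, 10838 and 11053 in knockdown libraries. The knockdown libraries lay within a narrow band, with a coefficient of variation of 1.06%, whereas the controls lay on both sides of that band with 19.1%. Counting error at this depth was 0.978% if each count is taken as independent, and larger if the mates of a pair were both counted. Syn1 had a log2 fold change of 0.13 (SE 0.114, 95% interval -0.12 to 0.38, adjusted p = 0.550), and it ran from 0.04 without control library 3 to 0.25 without control library 2. Timp1, on the opposite strand inside a Syn1 intron, held 189 normalized counts in control and 109 in knockdown libraries (exact permutation p = 0.114). The other genes within Syn1 are the pseudogene Gm15029 (205 and 168 normalized counts) and Mir5617 (554 and 591), and Araf shares 5 bases with its end (2460.1 and 2164). Mir5617 covers 57 bases on the same strand as Syn1, so its counts cannot be told apart from those of Syn1. The log2 fold change of Syn1 without the counts of the intervals inside it was 0.15.

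Syn2 (ENSMUSG00000009394, chr6:115134917-115282006, plus strand, 13 exons) had 10765, 12334.5, 11767 and 11248 normalized counts in control libraries and 12526, 13562, 13579 and 11537 in knockdown libraries. Knockdown libraries 1, 2 and 3 exceeded every control, and knockdown library 4 lay among the controls. Syn2 had a log2 fold change of 0.15 (SE 0.0736, 95% interval -0.01 to 0.31, adjusted p = 0.280), and 0.01 with the length offset. Inside Syn2 lie Gm17482 on the same strand (2420.2 normalized counts in control, 2649.9 in knockdown) and Timp4 on the opposite strand (729 and 843). The interval of Gm17482 includes coding sequence of Syn2, so its counts cannot be told apart from those of Syn2. The log2 fold change of Syn2 without the counts of these intervals was 0.16.

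**Figure D2:**
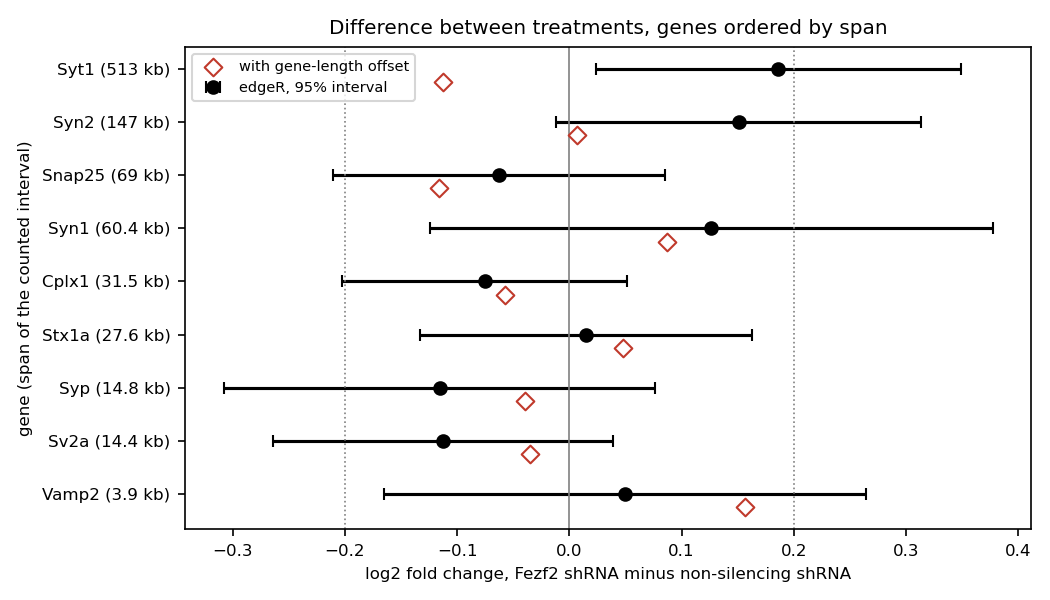
Log2 fold change (horizontal axis, Fezf2 shRNA minus non-silencing shRNA) of the 9 genes ordered by span (vertical axis), as the edgeR estimate with its 95% interval (black) and with an offset for gene length (open diamonds, no interval); dotted lines mark the size limit of 0.2. Only the Syt1 interval, 0.02 to 0.35, leaves out 0, and with the offset Syt1 is at -0.11.

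The shRNA target within Fezf2 was compared with the spliced transcripts of the 9 genes, since the hairpin was made in the neurons that express them. The 19 bases occur whole in the Fezf2 coding sequence and in none of the 9. The longest runs in the sense direction were 10 bases in Syn1 and 9 in Syn2, both in coding sequence, and 6 to 8 bases in the other 7. The run of 8 was in the 3′ untranslated region of Cplx1 and matched bases 12 to 19 of the shRNA. The runs of Syn1 and Syn2 matched bases 3 to 12 and 4 to 12. The shRNA sequence is shown with the part found in Syn1 in capitals, followed by the Syn1 and Syn2 stretches (GRCm38 chrX:20865127-20865136, minus strand, and chr6:115254716-115254724, plus strand) with the shared run in capitals.
shRNA: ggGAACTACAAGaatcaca
Syn1: gggcaGAACTACAAGgccta
Syn2: gcaacAACTACAAGgccta
The means of Syn1 and Syn2 were higher in the knockdown libraries (10942 beside 10023 normalized counts for Syn1, 12801 beside 11529 for Syn2). That of Cplx1 was lower (11449 beside 12064). Whether the shRNA acts on any of these transcripts was not tested.

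The promoter of Syn1 is shown because the vector used the rat counterpart of this gene's promoter in both groups. The 250 bases before the RefSeq start (GRCm38.p6, chrX:20920919-20921168, minus strand) hold 1 match to the left side of the RE1 element, the site bound by the neuronal repressor REST, and 1 cyclic AMP response element, both in capitals.
Syn1 promoter: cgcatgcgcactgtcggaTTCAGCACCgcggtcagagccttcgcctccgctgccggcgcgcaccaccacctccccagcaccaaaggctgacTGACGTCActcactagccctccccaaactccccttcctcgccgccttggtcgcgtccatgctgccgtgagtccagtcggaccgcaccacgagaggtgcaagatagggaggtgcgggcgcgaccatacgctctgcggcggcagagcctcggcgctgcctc
Both strands were searched for 4 motifs, the left side of RE1 as TTCAGCACC, the cyclic AMP response element as TGACGTCA, the GC box as GGGCGG and the TATA box as TATAAA. Of 32851 RefSeq promoters of this length, 0.301% held the RE1 letters, 1.55% the cyclic AMP response element, 32.7% a GC box and 12.4% a TATA box. Promoters of 7 of the 9 genes were in the table used here, all except those of Snap25 and Vamp2. The other 6 each held at least 1 GC box and none of the other 3 motifs, and the GC content of the 7 ran from 56.4% to 68.0% beside a median of 52.4% over all promoters. A match is a description of the letters and was not tested as a binding site.

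Because the counts cover whole genomic intervals, introns included, the 9 genes differ in how much of their signal can come from exons. Vamp2 is 56.6% exonic and Syt1 0.924%. Per kilobase of counted interval, Vamp2 had the highest level with a median of 39.6 CPM per kb over the 8 libraries, followed by Syp with 35.7, and the ranges of these 2 overlapped. Snap25 (19.9), Sv2a (13.4), Cplx1 (6.86) and Stx1a (4.84) followed without overlap between neighbours. Syn1 (3.27) and Syt1 (2.70) overlapped in range, and Syn2 (1.49) was lowest. Divided by exonic kilobases instead, with intron reads still counted, the order by the highest library of each gene began with Snap25, Syt1 and Syp. It ended with Syn1, Stx1a and Sv2a, where the ranges of Syn1 (45.2 to 71.4) and Stx1a (57.9 to 67.8) overlapped. The rank of a gene with long introns thus depended on the length used.

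Shorter annotated transcripts nested within 8 of the genes allowed their counts to be split into 18 parts, chosen after the values were seen, and none of the parts passed the threshold. In Syt1 the log2 fold changes of the parts ran from 0.00 to 0.38, without the gene-length offset, which was not applied to parts. The 3′ part has most of the coding exons and 49.2% of the counts, but only 2.92% of its 131561 bases are exonic, so it too is mostly intron. It had 36343, 40439.8, 35960.3 and 32745 normalized counts in control libraries and 36143, 36634, 37585 and 35489.7 in knockdown libraries. There the knockdown libraries fell within the control range and the log2 fold change was 0.00 (SE 0.0755, adjusted p = 0.987).

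The middle part of Syt1, 272101 bases that are 0.294% exonic, had 23139, 28409, 24879.7 and 24223 normalized counts in control libraries and 30325, 32719, 37258 and 30849 in knockdown libraries. All 4 knockdown libraries exceeded all controls in these introns, a pattern held by 7.41% of all genes tested. The log2 fold change there was 0.38 (SE 0.0904, adjusted p = 0.0575, exact permutation p = 0.0286). The 5′ intron gave 0.31 with overlapping groups (SE 0.147, adjusted p = 0.276). The transcript ENSMUST00000156979, which spans the middle part and the 5′ intron without the 3′ part, passed the threshold when it stood for Syt1 (log2 fold change 0.36, SE 0.0722, adjusted p = 0.0328), whereas ENSMUST00000147593, within the 3′ part, gave -0.07.

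The ratio of middle to 3′ counts of Syt1 compares both parts within one library. It was 0.637, 0.702, 0.692 and 0.740 in control libraries and 0.839, 0.893, 0.991 and 0.869 in knockdown libraries. The ratio was higher in every knockdown library than in any control, by 0.37 on the log2 scale (exact permutation p = 0.0286, 0.2 after adjustment over the 7 such ratios computed). In the other 6 ratios, each of an upstream over a 3′ part, the groups overlapped, with permutation p from 0.2 (Snap25) to 0.971 (Stx1a) before adjustment.

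**Figure D3:**
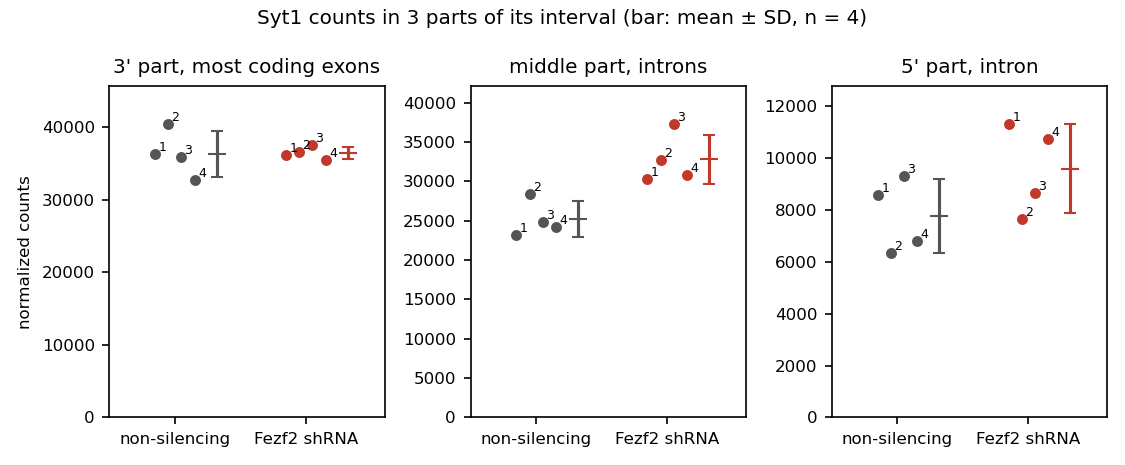
Normalized counts (vertical axis from 0) of the 3′, middle and 5′ parts of Syt1 in each library given non-silencing shRNA (grey) or Fezf2 shRNA (red), with mean ± SD. The groups share one level in the 3′ part and do not overlap in the middle part, where controls end at 28409 and knockdown libraries begin at 30325.

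The 3′ parts that are 100% exonic hold no intron. In Snap25 this part holds 33.6% of the counts and its log2 fold change was -0.13 (SE 0.0678, adjusted p = 0.305), with -0.01 in its 5′ introns. In Cplx1 it holds 71.7% and the log2 fold change was -0.10 (SE 0.0522, adjusted p = 0.318), with -0.02 in the rest of the gene. In Vamp2 it holds 83.0% and the log2 fold change was 0.06 (SE 0.0938, adjusted p = 0.742). The exonic differences of Snap25 and Cplx1 were larger than the SD of either group (exact permutation p = 0.0857 and 0.0571), but did not pass the adjusted threshold. The parts of Stx1a lay at 0.00 and 0.02, those of Syn2 at 0.15 and 0.17, those of Syp at -0.04 and -0.14 and those of Sv2a at -0.13 and -0.11. Syn1 was not split.

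**Figure D4:**
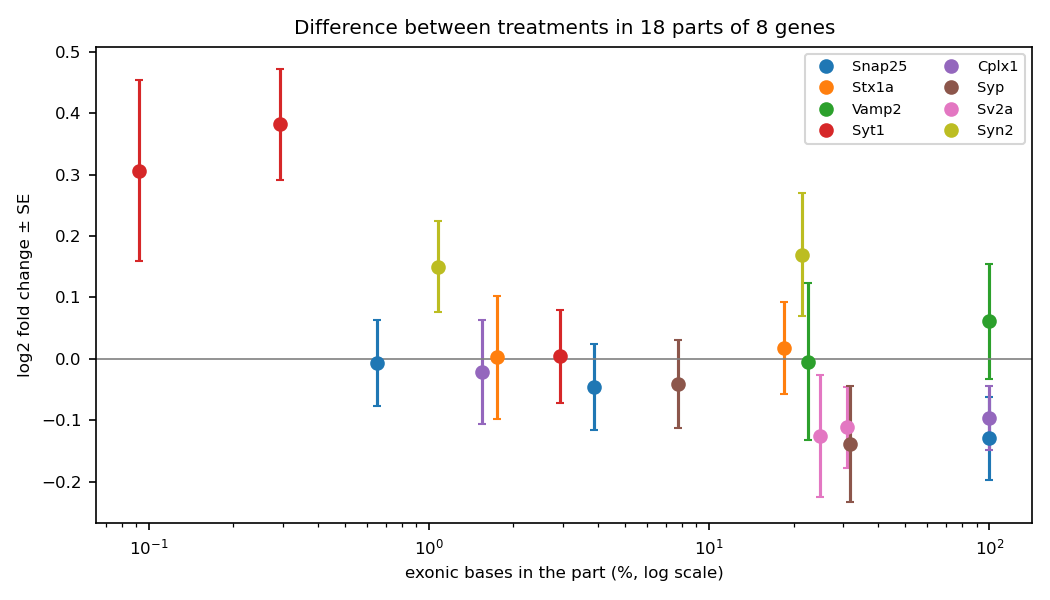
Log2 fold change ± SE (vertical axis) of the 18 parts of 8 genes against the exonic share of each part (horizontal axis, percent, log scale), coloured by gene. The highest points, 0.38 and 0.31, are the middle part and the 5′ intron of Syt1, and the 3′ part of Syt1, 2.92% exonic, is at 0.00.

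The 9 genes did not share one profile over the libraries. After each gene was standardized, their mean was highest in control library 2 (0.936 SD) and lowest in knockdown library 4 (-0.803 SD), with the other 6 libraries of both groups between. Pearson correlations of the single genes with this mean, over 8 libraries and as a description only, ran from 0.312 for Cplx1 to 0.738 for Snap25. The 5 other genes closest to it were Kifap3 (r = 0.977), Hpcal4 (0.971), Zdbf2 (0.967), Pgm2l1 (0.939) and Rsph14 (0.939), whose log2 fold changes lay between -0.02 and 0.02. All these correlations share the same libraries and scaling.

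Beyond the 9, 106 other genes of release and recycling were listed, and 99 were tested. In edgeR, 2 of these rose and none fell, 2.02% beside the 2.09% of all genes tested, and the median log2 fold change was -0.00. At an unadjusted p under 0.05, 15 were higher and 4 lower (19.2%, beside 19.6% of all genes, of which 11.8% higher and 7.73% lower). By these edgeR counts the share was near the background, whereas DESeq2 called 10 of the 99, all higher, which is 10.1% beside 7.55% of all genes. Most DESeq2 calls over all genes were also higher (658 of 752).

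Both genes that rose in edgeR are active zone scaffolds, the protein mesh that docks vesicles at the release site. Erc2, which encodes the ELKS-family protein CAST, went from 22310 ± 1830 to 32770 ± 3140 normalized counts (SD, n = 4, log2 fold change 0.56, SE 0.0895, edgeR adjusted p = 0.0276). Ppfia2, encoding liprin-alpha-2, went from 10120 ± 122 to 12270 ± 403 (log2 fold change 0.28, SE 0.0544, adjusted p = 0.0320). In both genes the groups did not overlap. Their counted intervals span 856 and 462 kb, and with the length offset the log2 fold changes were 0.20 (adjusted p = 0.342) and -0.01 (adjusted p = 0.968). Neither gene was called without control library 1 or 4 or knockdown library 1, 3 or 4, where the log2 fold change of Erc2 was 0.51 to 0.56 (adjusted p = 0.0608 to 0.0998). The median of the 13 scaffold genes was 0.14, and DESeq2 also called Rims1 and Rims2 among them.

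None of the genes in the other 5 lists (13, 15, 11, 22 and 25 tested) passed the threshold in edgeR. DESeq2 at the same thresholds called 6 of them, all higher in knockdown, where it called 7.55% of all genes tested. Of its 752 calls over all genes, 658 were higher. Those 6 were Snap23, Cadps, Stxbp5l, Synpr, Amph and Sh3gl2, named after their values were seen, and their edgeR log2 fold changes ran from 0.22 (Amph) to 0.40 (Sh3gl2) with adjusted p from 0.0749 to 0.12. Among 13 SNARE paralogs tested (median -0.05, 1 higher and 0 lower at an unadjusted p under 0.05), Snap47 had a log2 fold change of -0.09 (SE 0.0883). Among 15 genes of SM proteins, priming and SNARE recycling (median 0.10, 5 higher and 0 lower), the priming factor Cadps had 0.25 (SE 0.0737, adjusted p = 0.106) and Napb, a beta-SNAP that works with NSF to take SNARE complexes apart, -0.13 (SE 0.0871). Among 11 synaptotagmins, complexins and Doc2 proteins (median -0.10, 0 higher and 2 lower), Cplx2 had 0.03 (SE 0.102) and Syt11 -0.10 (SE 0.0691).

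Among 22 vesicle membrane proteins and transporters (median -0.01, 2 higher and 1 lower), the vesicular glutamate transporter Slc17a7 had a log2 fold change of -0.07 (SE 0.0872) and Sv2b of 0.08 (SE 0.102). Among 25 endocytosis genes (median -0.02, 3 higher and 1 lower), the clathrin-uncoating chaperone Hspa8 had -0.10 (SE 0.109) and the clathrin heavy chain gene Cltc -0.04 (SE 0.0819). The genes left untested for low counts were Stx2, Stxbp2, Syt9, Cplx3, Doc2b, Syngr2 and Rab3d.

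**Figure D5:**
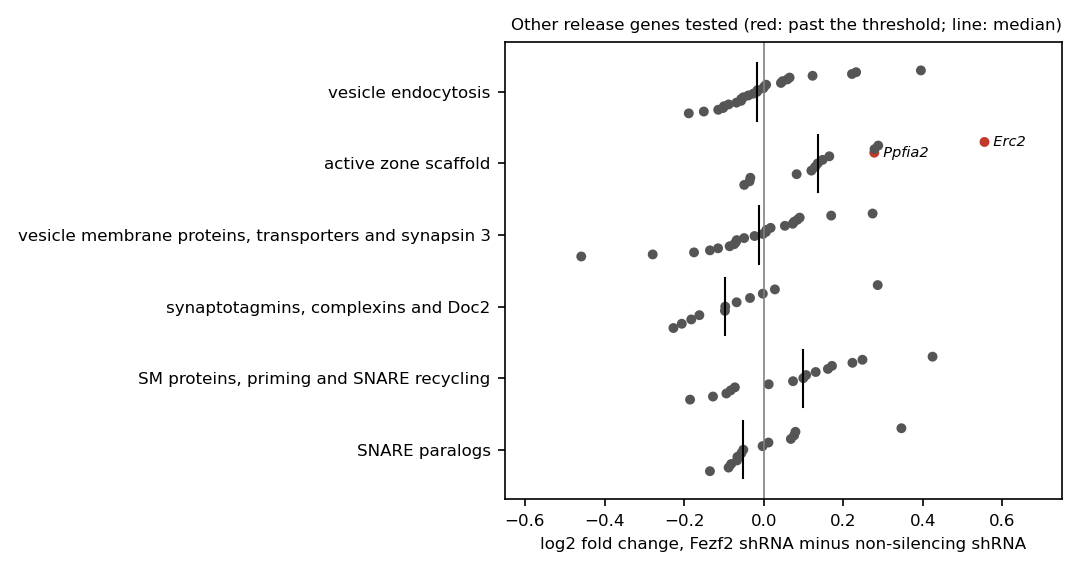
Log2 fold change (horizontal axis, Fezf2 shRNA minus non-silencing shRNA) of the 99 other release genes tested, in 6 lists (vertical axis), with the median of each list as a line. The genes past the edgeR threshold, in red, are Erc2 at 0.56 and Ppfia2 at 0.28, and the points of the other lists lie on both sides of 0.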

How the data were processed

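Total RNA of 8 tissue samples was sequenced as paired-end libraries on an Illumina HiSeq. The authors aligned reads to GRCm38 with TopHat2 2.1.1 and made the deposited raw counts with bedtools 2.26.0 multiCov, per Ensembl transcript interval, introns included, so nested transcripts share reads. No strand option for the counting is given in the sources used here, and the counts were treated as unstranded, which bears on the genes that overlap Syp, Syn1 and Syn2. A second deposited table holds the authors' own DESeq2 comparison and was not used.

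Of 94647 transcripts, 91320 matched GENCODE M21, and the other 3327 held 1.82% of counts. A gene was represented by its lowest-numbered Ensembl transcript. Genes above 8 CPM in at least 4 libraries were tested with edgeR 4.0.16 (TMM scaling, quasi-likelihood F test, Benjamini-Hochberg adjustment over all 9959), and called when the adjusted p did not exceed 0.05 and the log2 fold change was 0.2 or more in either direction. DESeq2 1.42.0 was an alternative. The biological coefficient of variation was 11.7%. Single values were compared by a two-sided exact permutation test. Intervals are 95% and rest on the edgeR SE. The steps were tested on simulated counts whose biological coefficient of variation was set below that of the data.

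Samples were grouped by their titles. The labels do not tie each library to a separate animal beyond the number per group, so p-values measure the spread between these samples. Replicates of a group differed beyond sampling noise. The members and gene lists were chosen with earlier results of these data known. All 9 members were named, and in each other list the called genes or otherwise the 2 with most counts, of which 1 is not reported here. Promoters are from RefSeq. The alternatives were other scalings, filters, transcripts and offsets, and leaving out libraries.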

Additional observations from a re-analysis of the deposited data

Results flagged for a closer look

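Of 54 sets of 4 libraries examined for a library far from the others of its group, 3 held one, and chance gives about 1 in 20. Syt1 had 83506 normalized counts in knockdown library 3, with the other knockdown libraries between 77018 and 77780.4, and its log2 fold change stayed above 0 without any single library. Sv2a had 9165 in knockdown library 4, where the others had at least 10477, and 8381.6 in the larger of its parts, which holds 90.8% of its counts. Library 4 of the knockdown group was also the lowest of the 8 for Snap25, Stx1a and Syp. Without it the log2 fold change went from -0.11 to -0.06 for Sv2a and from -0.12 to -0.05 for Syp.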

How the results depend on the processing

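None of the 9 genes passed the threshold under any scaling, filter, tool, offset, block or left-out library. Over these settings Snap25, Cplx1, Syp and Sv2a kept a log2 fold change below 0, and Vamp2, Syn1 and Syn2 one above 0. Syt1 turned to -0.11 with the gene-length offset and to -0.11 with that offset and the replicate block, and to -0.0714 with ENSMUST00000147593, but reached 0.36 and passed with ENSMUST00000156979; DESeq2 gave it an adjusted p of 0.0578. Stx1a turned to -0.0147 with library totals and below 0 without control replicate 1, knockdown replicate 1 or knockdown replicate 2, in a range of -0.0246 to 0.0514 over the left-out libraries. Vamp2 was at -0.00459 in its 5′ part, which is also ENSMUST00000117780, and at -0.0172 with ENSMUST00000146847. Fezf2 passed in DESeq2 without (-0.28) and with a prior on fold changes (-0.25, adjusted p = 0.0256 in both), and at an adjusted p of at most 0.1 (-0.29). The calls over all genes (208) and over the other release genes (2) came to 136 and 1 with library totals, 84 and 1 with a filter at 1 CPM, 103 and 1 without a filter, 752 and 10 in DESeq2 without and 734 and 10 with a prior, 2 and 0 with the length offset alone or with the block, and 534 and 5 at an adjusted p of at most 0.1. Leaving out each library in turn gave 0 to 368 calls over all genes (0 without control 1, 368 without control 2) and 0 to 4 among release genes. Erc2 and Ppfia2 were both called without control replicate 2 or 3 or knockdown replicate 2 and neither without each of the other 5. Without control replicates 2 and 3 together, an alternative added after seeing the data like the parts and the GC offset, 1 release gene was called. The replicate numbers do not pair the samples (same-number correlations 0.307, 0.0931, -0.133 and 0.167), and not every sample correlated best with its own number. A replicate block gave 90 calls over all genes and 0 release genes. The causes of these changes were not tested. Counting error for the 9 genes, taking each count as independent, was 0.365% to 1.16%, below the coefficient of variation in both groups of every gene. The libraries were paired-end, and the mates of a pair are not independent, so the true error can be larger. For Syn1 in knockdown libraries the margin was small (1.06% beside 0.978%). Apart from that group, 4 libraries a group and not depth limited the precision.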
